A study of Mus musculus with 6 samples.

Results

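NF-κB transcription factor subunits and their IκB-family partners were described in mouse T helper 1 (Th1) cell cultures, as the genes Nfkb1, Nfkb2, Rel, Rela, Relb, Nfkbia, Nfkbib, Nfkbie, Nfkbid and Nfkbiz. They were chosen by symbol, 10 genes of the 18046 listed in each library, and all 10 lay above the filter on low values in all 6 libraries. Naive CD4+ T cells from the spleen of C57BL/6 mice, aged 3 weeks in the labels, were stimulated through CD3 and CD28 for 3 days under Th1-polarizing conditions. The medium held 20 µM LPC (n = 3 libraries) or vehicle (n = 3 libraries). The labels neither spell out LPC nor name the vehicle, and they describe no genetic change. Whether a group's 3 libraries are separate mice or separate dishes is not stated, so the p-values speak for the spread among these libraries, which may be technical. The comparison asked how LPC altered the transcripts of this signalling family in differentiating Th1 cells.

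NF-κB factors are dimers of Rel-homology proteins that IκB proteins hold in the cytosol. In T cells, signals from the antigen receptor and CD28 pass through adaptor proteins to the IκB kinase (IKK), which marks the cytosolic IκB proteins for destruction and so frees the dimers. A separate non-canonical route, fed by receptors of the tumour necrosis factor family, turns the precursor encoded by Nfkb2 into its active form, which pairs with RelB. Nfkbid and Nfkbiz encode nuclear IκB proteins, which act on NF-κB already bound to DNA. Several genes of the family are textbook targets of NF-κB itself.

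Expression was measured by RNA sequencing and given as FPKM (a count of sequenced fragments divided by exon length and by the library's mapped reads). Each library had 10002 to 10139 genes at 1 FPKM or more, and low values lay nearest to whole reads at an estimated depth of 19.0 to 19.5 M reads. LPC replicate 3 stood apart, with the highest FPKM sum (641026, against 556561 to 588274 in the others) and the lowest share of genes listed at 0 (17.9%, against 19.4% to 20.2%). It was also the lowest of the 6 libraries for 6 of the 10 genes. The cultures read as T cells by 9 markers, whose summed level was 1724 to 1853 FPKM with LPC and 1795 to 1833 FPKM with vehicle. None of the 9 passed the test, but Cd4 was lower in every LPC library, at 177.07, 169.87 and 143.89 FPKM with LPC and 185.33, 205.20 and 199.32 FPKM with vehicle (log2 change of FPKM + 1, LPC minus vehicle, -0.27, limma adjusted p = 0.0875). Its part in the changes described here was not tested. Cd8a was at most 0.33 FPKM, although Cd8b1 was at 10.6 to 12.6 FPKM with LPC and 13.4 to 14.2 FPKM with vehicle, with no overlap (log2 change -0.22, limma adjusted p = 0.142). The B cell marker Ms4a1 was at most 0.08 FPKM, the myeloid markers Lyz2 and Csf1r at most 0.30 and the dendritic cell markers Itgax and Flt3 at most 0.07. Other markers of these lists were higher and differed between groups. Ebf1 (B cell) reached 2.28 FPKM, and Zbtb46 and Ccl22 (dendritic) 2.87 and 2.49. Ebf1 and Ccl22 were higher and Zbtb46 lower with LPC (limma adjusted p of 0.0362, 0.00171 and 0.00139).

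The genes lie on 7 chromosomes of GRCm38. In the RefSeq gene table of that build, Nfkb1 spans 135584655 to 135691969 on chromosome 3, Rel 23736847 to 23770969 on chromosome 11 and Nfkbia 55489409 to 55492647 on chromosome 12. Nfkbiz spans 55811375 to 55838954 on chromosome 16 and Nfkbie 45555700 to 45563169 on chromosome 17. Chromosome 7 carries Relb (19606217 to 19629438), Nfkbib (28758251 to 28766644) and Nfkbid (30421731 to 30428749). Chromosome 19 carries Rela (5637442 to 5648134) and Nfkb2 (46300994 to 46312400). The annotated span of Nfkb2 overlaps that of Psd, and that of Nfkbib overlaps Ccer2. Nfkb2 also overlaps the long non-coding RNA gene 4833438C02Rik, and Nfkb1 overlaps another, Gm46827, whose levels were not examined here. No source states whether counting used strand, so reads from an overlap could not be told apart, but Psd was at 14.2 to 17.4 FPKM with LPC and 10.3 to 14.5 FPKM with vehicle, and Ccer2 was at most 0.27 FPKM.

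Because some of these genes are known NF-κB targets, the 250 bases before each annotated start were searched for the NF-κB consensus on both strands. RefSeq promoters of GRCm38.p6 were at hand for 7 of the 10 genes (Nfkb2, Rel, Rela, Nfkbia, Nfkbib, Nfkbie and Nfkbid), with 11 starts. The consensus was found before 7 of those 11 starts and in 5 of the 7 genes, against 7.3% of all 32851 promoters and 8.2% of the 27025 genes with a promoter. Rela and Nfkbib had no match in these windows. One match per gene, or 2 for Nfkb2, is shown on the strand of the gene with 10 bases on each side, the capitals mark the matched letters and the coordinates are those of the capitals (Rel and Nfkbia on the minus strand, the others on the plus strand):
Nfkb2, 39 to 30 bases before a start, chr19:46304698-46304707: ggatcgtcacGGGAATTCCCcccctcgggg
Nfkb2, 225 to 216 bases before a later start, chr19:46305705-46305714: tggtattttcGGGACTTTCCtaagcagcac
Rel, 92 to 83 bases before its start, chr11:23771052-23771061: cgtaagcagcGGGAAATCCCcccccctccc
Nfkbia, 29 to 20 bases before its start, chr12:55492667-55492676: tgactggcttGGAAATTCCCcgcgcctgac
Nfkbie, 106 to 97 bases before its start, chr17:45555594-45555603: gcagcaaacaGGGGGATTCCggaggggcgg
Nfkbid, 226 to 217 bases before an internal start, chr7:30422180-30422189: gccccgccctGGGACTTCCCagagcaccac
The Nfkb2 starts, like that shown for Nfkbid, lie inside the annotated span of the gene and not at its first base. The Nfkbia match reads as the consensus on the opposite strand. The first Nfkb2 match and the Rel match overlap a further match shifted by 1 base. These matches describe the sequence and do not show binding.

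With LPC, 2 of the 10 genes fell and none rose at a limma adjusted p under 0.05: Nfkbiz and Nfkbib. The same test called 13.7% of the 10138 tested genes in either direction, 7.91% lower and 5.82% higher with LPC (42.4% of calls higher, 53.1% after median centring), so a count of 2 in 10 lies near the background. By the ranges of the libraries, LPC and vehicle did not overlap for 6 of the 10 genes, 5 lower and 1 higher with LPC, against 34.5% of all tested genes in either direction. The median log2 change over the 10 genes was -0.23 (7 of 10 below 0), beside -0.04 over all tested genes (58.3% below 0). Log2 changes are of FPKM + 1, LPC minus vehicle, so those of low genes are understated.

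**Figure D1:**
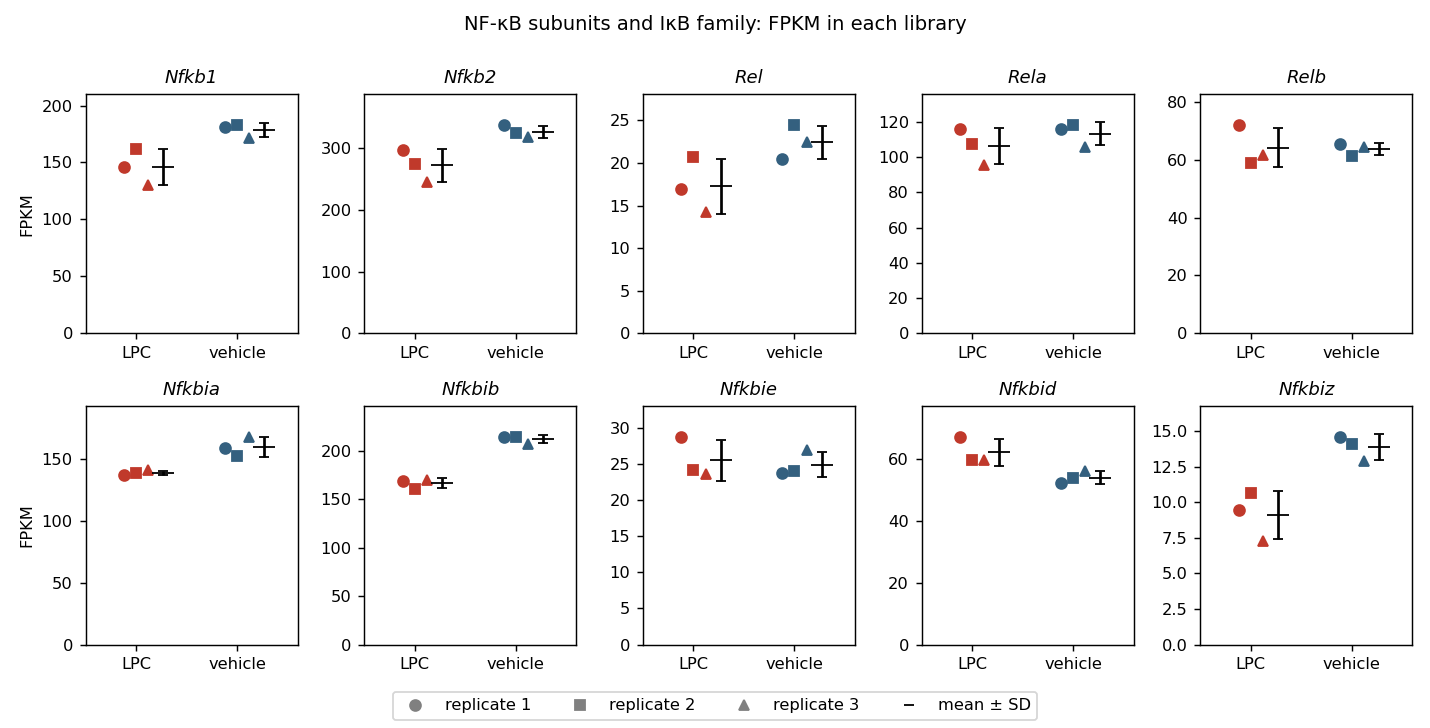
FPKM (vertical axis, from 0) of each NF-κB and IκB gene in the 3 LPC and 3 vehicle libraries, with point shape for the replicate number and a bar for the mean ± SD of the group. The LPC libraries lie below all vehicle libraries for Nfkb1, Nfkb2, Nfkbia, Nfkbib and Nfkbiz and above them for Nfkbid.

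Nfkbiz, which encodes the inducible nuclear IκBζ, was the member with the largest change. It was at 9.47, 10.63 and 7.26 FPKM in LPC replicates 1 to 3, against 14.62, 14.14 and 12.89 FPKM in vehicle replicates 1 to 3. Every LPC library lay below every vehicle library. The means were 9.12 ± 1.71 FPKM with LPC and 13.9 ± 0.893 FPKM with vehicle (SD, n = 3 each), a ratio of 0.657. The log2 change was -0.57 (SE 0.12, 95% interval -0.83 to -0.31, limma adjusted p = 0.00923). Without LPC replicate 3, the library that stood apart and held the lowest value, the log2 change was -0.43 (limma adjusted p = 0.0126). With no filter on low values the same change had a limma adjusted p of 0.0715, among 16899 genes.

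Nfkbib, which encodes the cytosolic inhibitor IκBβ, was at 168.86, 160.26 and 169.63 FPKM with LPC and at 214.49, 214.12 and 207.22 FPKM with vehicle. The groups were far apart relative to their spread, with means of 166 ± 5.20 FPKM in LPC libraries and 212 ± 4.09 FPKM in vehicle libraries (SD, n = 3 each). The log2 change was -0.35 (SE 0.085, 95% interval -0.53 to -0.17, limma adjusted p = 0.0173), and -0.36 without LPC replicate 3 (limma adjusted p = 0.0126). It did not pass without vehicle replicate 1 or vehicle replicate 2 (log2 changes -0.34 in both fits, limma adjusted p of 0.0945 and 0.0926).

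Nfkbia, which encodes IκBα, the best-known feedback inhibitor, was at 136.64, 138.28 and 140.43 FPKM with LPC and 158.33, 151.76 and 167.70 FPKM with vehicle. The LPC libraries all lay below the vehicle libraries and close to each other, but the change did not pass the test (log2 change -0.20, 95% interval -0.38 to -0.02, limma adjusted p = 0.135). It passed with quantile normalization (-0.27, limma adjusted p = 0.0456) and after removal of each library's trend with GC share and transcript length (-0.28, limma adjusted p = 0.0144). Nfkbie, which encodes the third cytosolic inhibitor IκBε, was at 28.79, 24.16 and 23.56 FPKM with LPC and 23.79, 23.98 and 26.90 FPKM with vehicle. Its groups overlapped, with a log2 change of 0.03 (95% interval -0.18 to 0.24, limma adjusted p = 0.868).

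Nfkbid, which encodes the nuclear protein IκBNS, was the one member whose LPC libraries all lay above the vehicle libraries. It was at 67.29, 59.61 and 59.75 FPKM with LPC and 52.22, 53.76 and 56.15 FPKM with vehicle. The log2 change of 0.20 did not pass (95% interval 0.01 to 0.39, limma adjusted p = 0.147). It shrank to 0.11 after removal of the GC and length trends (limma adjusted p = 0.277).

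Among the subunits no gene passed the test, and the 3 nearest to the threshold were Rel, Nfkb1 and Nfkb2. Nfkb1, which encodes the precursor of the p50 subunit, was at 146.24, 161.68 and 130.40 FPKM with LPC and 181.50, 182.50 and 171.54 FPKM with vehicle. Every LPC library lay below the vehicle libraries, and LPC replicate 3 was the lowest (log2 change -0.29, SE 0.10, 95% interval -0.50 to -0.09, limma adjusted p = 0.0598). Nfkb2, which encodes the precursor of the p52 subunit, was at 297.71, 273.96 and 244.85 FPKM with LPC and 336.97, 324.11 and 318.90 FPKM with vehicle. These groups did not overlap either (log2 change -0.27, 95% interval -0.48 to -0.06, limma adjusted p = 0.0841). Rel, which encodes c-Rel, a subunit most used in lymphocytes, was at 16.91, 20.67 and 14.26 FPKM with LPC and 20.49, 24.41 and 22.43 FPKM with vehicle. LPC replicate 2 lay just above vehicle replicate 1, so the groups overlapped (log2 change -0.37, 95% interval -0.63 to -0.11, limma adjusted p = 0.057).

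The calls of Rel and Nfkb1 changed when LPC replicate 2 was left out, and those of Nfkb1 and Nfkb2 with the removal of trends with GC share and length. Rel, Nfkb1 and Nfkb2 each passed with the replicate number added as a block (limma adjusted p of 0.00535, 0.0107 and 0.0198). The labels do not state such a pairing. Over the 10034 tested genes with an annotated transcript, Pearson's r of the log2 change was 0.25 with GC share and -0.29 with log2 transcript length, as a description, since all genes share the 6 libraries. The longest annotated transcript has 7466 bases and 42.5% GC for Rel, 4149 bases and 44.9% for Nfkb1, and 3846 bases and 59.4% for Nfkb2. Without LPC replicate 2, Rel (-0.50, limma adjusted p = 0.0133) and Nfkb1 (-0.37, limma adjusted p = 0.0217) passed. Without LPC replicate 3 the log2 changes were -0.25 for Rel, -0.21 for Nfkb1 and -0.19 for Nfkb2, and none passed (limma adjusted p of 0.142, 0.123 and 0.161). Nfkb2 did not pass in any of the 6 fits that left out 1 library (limma adjusted p of 0.068 to 0.273). After removal of the GC and length trends Nfkb1 (-0.23, limma adjusted p = 0.0434) and Nfkb2 (-0.32, limma adjusted p = 0.00833) passed. The change of Rel shrank to -0.235 in that fit and did not pass (limma adjusted p = 0.0626).

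Rela and Relb, which encode the activating partners p65 and RelB, had overlapping groups. Rela was at 115.70, 107.54 and 95.66 FPKM with LPC and 116.00, 117.98 and 105.92 FPKM with vehicle (log2 change -0.09, 95% interval -0.30 to 0.11, limma adjusted p = 0.534). Relb was at 71.86, 58.98 and 61.78 FPKM with LPC and 65.43, 61.45 and 64.48 FPKM with vehicle. Its log2 change was 0.00 on 2 decimals (0.005, 95% interval -0.20 to 0.21, limma adjusted p = 0.98), and -0.04 with quantile normalization. After removal of the GC and length trends the log2 changes were -0.17 for Rela (limma adjusted p = 0.158), -0.05 for Relb (0.606) and -0.02 for Nfkbie (0.85). The intervals of Rela, Relb and Nfkbie leave room for changes in either direction.

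**Figure D2:**
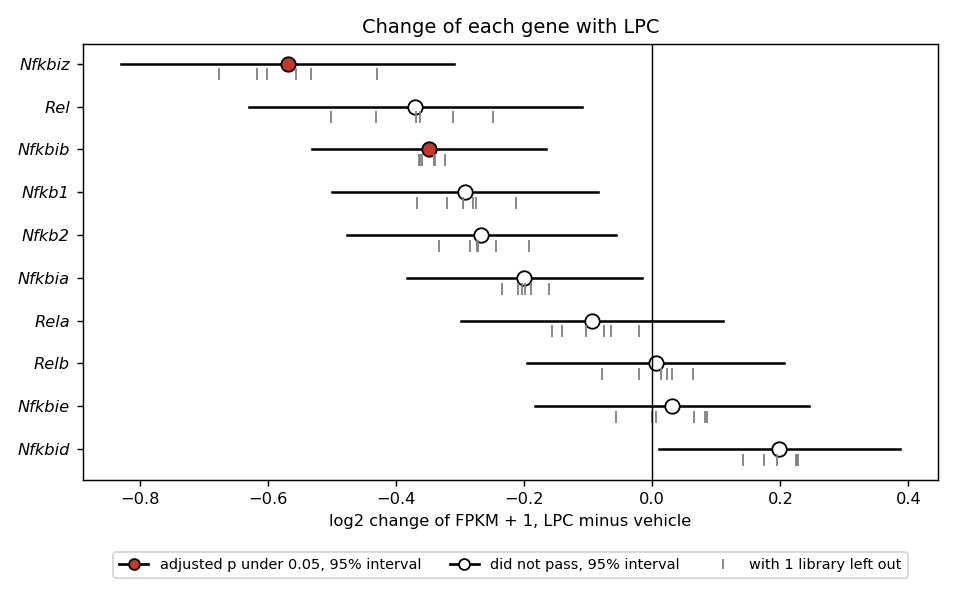
Log2 change of FPKM + 1, LPC minus vehicle (horizontal axis), for the 10 genes, with 95% intervals from limma and grey ticks for the fits that leave out 1 library. The filled points are Nfkbiz at -0.57 and Nfkbib at -0.35, while Rel, at -0.37, has a wider interval and did not pass.

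As a level, FPKM ordered the genes alike in both groups. With LPC, Nfkb2 led at 272 FPKM, followed by Nfkbib (166), Nfkb1 (146), Nfkbia (138), Rela (106), Relb (64.2), Nfkbid (62.2), Nfkbie (25.5), Rel (17.3) and Nfkbiz (9.12). With vehicle the means in the same order of genes were 327, 212, 179, 159, 113, 63.8, 54.0, 24.9, 22.4 and 13.9 FPKM. In LPC libraries the ranges of Nfkbib and Nfkb1, of Nfkb1 and Nfkbia, and of Relb and Nfkbid overlapped, so those neighbours did not differ beyond their spread. In vehicle libraries Nfkbie and Rel were the single overlapping pair. Nfkb2 stood at percentile 97.4 of the tested genes by mean level with LPC and 98.0 with vehicle, and Nfkbiz at percentile 39.6 with LPC and 50.1 with vehicle.

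The balance between members was read as ratios within a library, which do not depend on a scaling factor of that library. The ratio of Nfkbid to Nfkbiz, the 2 nuclear IκB genes, was 7.11, 5.61 and 8.23 in LPC libraries and 3.57, 3.80 and 4.36 in vehicle libraries. All LPC values lay above all vehicle values. This follows from the ranges of the 2 genes, which lay apart in opposite directions, and is not a separate result. Nfkb2 to Relb, the partners of the non-canonical route, stood at 4.14, 4.64 and 3.96 with LPC and at 5.15, 5.27 and 4.95 with vehicle. Nfkbib to Rela stood at 1.46, 1.49 and 1.77 with LPC and at 1.85, 1.81 and 1.96 with vehicle. LPC libraries lay below vehicle libraries in both of these ratios, but Nfkbia to Rela overlapped, at 1.18, 1.29 and 1.47 with LPC and 1.36, 1.29 and 1.58 with vehicle. Nfkb1 to Rela also lay lower with LPC, while Nfkbie to Rela and Rela to Rel overlapped. As single genes Nfkb1, Nfkb2 and Nfkbib already lay lower in every LPC library, so the ratios that lay apart largely restate those genes. The summed level of the 5 subunits was 606 ± 52.8 FPKM with LPC and 705 ± 19.2 FPKM with vehicle (SD, n = 3 each). The summed level of the 3 cytosolic inhibitors was 330 ± 6.51 FPKM with LPC and 396 ± 6.00 FPKM with vehicle. Both sums were lower in every LPC library than in any vehicle library, and their ratio overlapped, at 0.548 ± 0.0538 with LPC and 0.562 ± 0.0222 with vehicle.

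**Figure D3:**
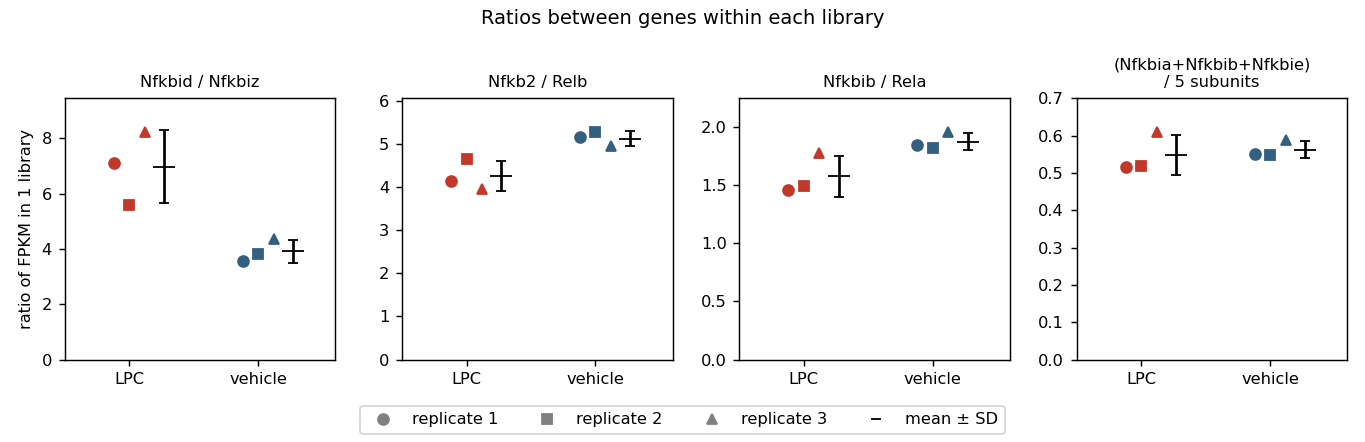
Ratios of FPKM between family members within each of the 3 LPC and 3 vehicle libraries (vertical axes from 0, bars for mean ± SD). Nfkbid to Nfkbiz is 5.61 to 8.23 with LPC and 3.57 to 4.36 with vehicle, as follows from the opposite changes of these genes, while inhibitors to subunits overlap.

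The subunits held the same order of shares in both groups. Of the summed subunit FPKM, Nfkb2 held 44.9% ± 0.969 with LPC and 46.4% ± 0.639 with vehicle, and Nfkb1 24.1% ± 1.72 with LPC and 25.3% ± 0.314 with vehicle (SD, n = 3 each). Rela held 17.5% ± 0.291 with LPC and 16.1% ± 0.553 with vehicle, and Relb 10.6% ± 0.998 with LPC and 9.06% ± 0.394 with vehicle. The shares of Rela and Relb did not overlap between groups and were higher with LPC. Their levels overlapped, with means of 106 and 64.2 FPKM with LPC and 113 and 63.8 FPKM with vehicle. The higher shares thus follow from the lower sum of the subunits and are not a gain of either gene. Rel held 2.84% ± 0.411 with LPC and 3.19% ± 0.307 with vehicle.

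Across the 6 libraries, the member most like Nfkb1 was Nfkb2, with a root mean square difference of 0.08 between their centred log2 values, and Relb was most like Nfkbie (0.064). Nfkbia and Nfkbib were most like each other (0.097). The 3 tested genes most like Nfkbiz were Sidt1 (0.047), Inpp4a (0.051) and Fosl2 (0.052). Fosl2, which encodes an AP-1 family transcription factor, was at 68.27, 69.51 and 50.04 FPKM with LPC and 95.73, 100.10 and 86.49 FPKM with vehicle.

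The genes that switch NF-κB on were read from a list of the IKK complex and the adaptors that join it to the T cell receptor. Of 16 tested genes 1 fell, none rose and 15 did not pass, with a list median of -0.125. Of all tested genes 7.91% fell and 5.82% rose, with a median of -0.04, so these counts lie near the background. The paracaspase gene Malt1 did not pass (log2 change 0.15, limma adjusted p = 0.336), although it did after removal of the GC and length trends (0.285, limma adjusted p = 0.0184). Nor did the kinase genes Chuk (-0.07, limma adjusted p = 0.707) and Ikbkb (-0.19, limma adjusted p = 0.185) or the regulatory subunit gene Ikbkg (-0.02, limma adjusted p = 0.933).

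In the non-canonical list 12 of 13 genes were tested, and Ltbr, the receptor gene for lymphotoxin, stayed under the filter at no more than 0.52 FPKM. Tnfrsf1b, a receptor gene for tumour necrosis factor, fell by 0.37 on the log2 scale, with 8.82, 7.75 and 7.09 FPKM in LPC libraries and 9.77, 10.47 and 11.13 FPKM in vehicle libraries (limma adjusted p = 0.0318). The other 11 genes did not pass, and 1 fall in 12 lies near the 7.91% of all tested genes that fell. All 12 log2 changes were below 0, from -0.37 to -0.006, with a median of -0.135. Over all tested genes 58.3% were below 0, with a median of -0.04. Median centring moved that median from -0.042 to 0.006, so the signs of the changes nearest 0 depend on the scaling. Without LPC replicate 3 or any single vehicle replicate Tnfrsf1b did not pass, with limma adjusted p up to 0.101. Map3k14, which encodes the NF-κB-inducing kinase, had a log2 change of -0.14 (limma adjusted p = 0.428) and Traf3, its negative regulator, of -0.16 (limma adjusted p = 0.30).

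Genes that restrain NF-κB signalling gave 1 fall, no rise and 15 that did not pass among 16 tested, with a median of -0.08. Those counts too lie near the shares of all tested genes, 7.91% lower and 5.82% higher, whose median was -0.04. Zc3h12a, which encodes Regnase-1, an RNase that degrades immune transcripts, fell by 0.335 on the log2 scale. It was at 22.68, 20.81 and 17.85 FPKM with LPC and 24.60, 25.98 and 27.28 FPKM with vehicle (limma adjusted p = 0.0418), and did not pass without LPC replicate 3 or any single vehicle replicate, with median centring (limma adjusted p = 0.0666) or with no filter (0.109). Tnfaip3, which encodes the deubiquitinase A20, overlapped between groups, at 28.73, 33.45 and 23.74 FPKM with LPC and 28.83, 32.78 and 28.96 FPKM with vehicle (log2 change -0.08, limma adjusted p = 0.658). Against 13.7% of all tested genes (median -0.04), none of 8 tested genes of other nuclear ankyrin proteins and modulators passed (median -0.095). Among them Bcl3, which encodes a nuclear IκB protein that binds p50 and p52, had a log2 change of -0.10 (limma adjusted p = 0.525).

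Of 31 tested NF-κB target genes, 3 fell, 1 rose and 27 did not pass, with a median of -0.025 and 58.1% below 0. These shares lie near those of all tested genes, of which 13.7% passed and 58.3% were below 0. Cd83, an activation marker, was at 25.81, 36.45 and 34.31 FPKM with LPC and 55.08, 51.63 and 47.52 FPKM with vehicle (log2 change -0.67, SE 0.12, limma adjusted p = 0.00373). Gadd45b, a stress-inducible signalling gene, was at 87.18, 99.01 and 99.00 FPKM with LPC and 146.52, 130.41 and 115.11 FPKM with vehicle (log2 change -0.45, limma adjusted p = 0.0128). For both genes all LPC libraries lay below all vehicle libraries. Gadd45b did not pass without LPC replicate 1 or vehicle replicate 1 (limma adjusted p up to 0.0862) or with no filter (0.0659), and Cd83 did not with no filter (0.0505). The cytokine gene Lta also fell (log2 change -0.45), and the chemokine gene Ccl3 rose (0.87). The target list shares Tnfaip3, Tnip1, Birc3 and Bcl3 with the other lists.

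**Figure D4:**
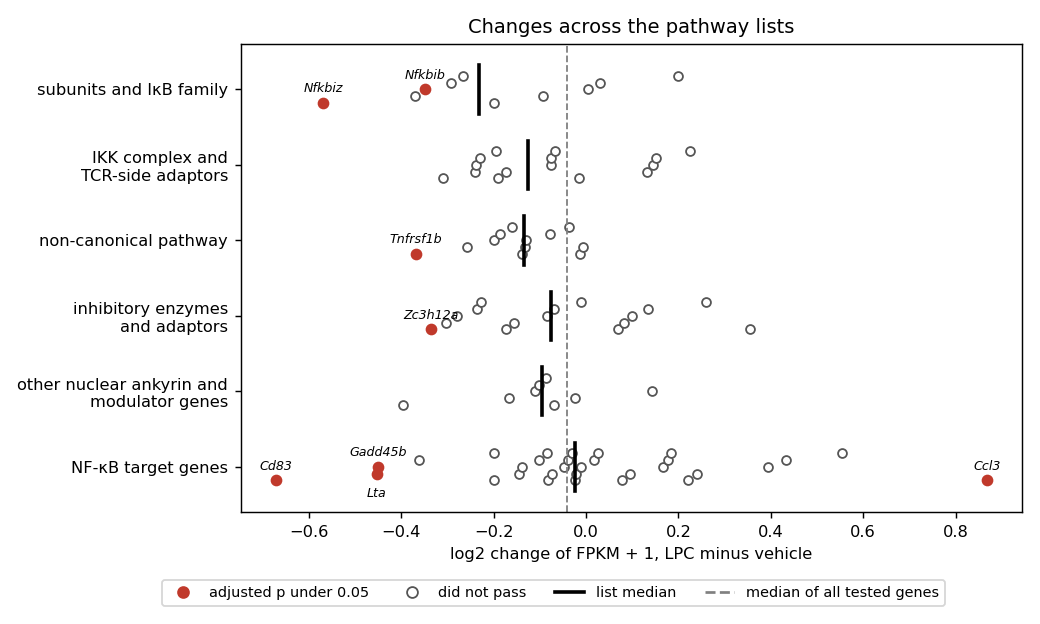
Log2 change of FPKM + 1, LPC minus vehicle, for the tested genes of the 10-gene family and the 5 pathway lists (15 of the 16 in the IKK list, the gene that fell left out), with filled points for a limma adjusted p under 0.05, a thick bar for the list median and a dashed line for the median of all tested genes (-0.04). The list medians run from -0.23 for the family to -0.025 for the target genes, and that of the IKK list is over all 16 genes, with the gene left out of the points.

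Some markers of other cell types differed between the groups. The B cell list (7 genes) summed to 2.60 to 2.95 FPKM with LPC and 2.13 to 2.72 FPKM with vehicle, and 1 gene of it passed the filter, Ebf1 (log2 change 0.42, limma adjusted p = 0.0362). Of the 6 dendritic cell markers, Zbtb46 was at 1.38 ± 0.185 FPKM with LPC and 2.82 ± 0.0839 FPKM with vehicle, and Ccl22 at 2.20 ± 0.319 FPKM with LPC and 0.977 ± 0.115 FPKM with vehicle (SD, n = 3 each). That list summed to 3.48 to 4.13 FPKM with LPC and 3.80 to 3.96 FPKM with vehicle. The 6 myeloid markers used summed to 0.33 to 0.43 FPKM with LPC and 0.05 to 0.19 FPKM with vehicle, and the 4 NK cell markers to at most 0.06 FPKM, with Ncr1 and Klra8 at 0 in all libraries. In bulk RNA, a smaller share of cells with a transcript and less of it per cell cannot be told apart.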

How the data were processed

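Total RNA of 6 libraries was sequenced on a BGISEQ-500 and aligned to GRCm38 with Bowtie2, per the labels' protocols. Per the labels' protocols, the authors used RSEM to give FPKM. The deposited FPKM have 2 decimals. Versions of these tools: not given in the sources used here. Read totals are not part of these files, so depth was estimated from 632 to 731 low genes per library (mean distance to a whole read 0.18 to 0.184, against a median of 0.253 to 0.26 over all depths tried). No count test was used. Symbols turned into dates (24) were restored by gene ID, and 99.3% of IDs matched RefSeq GRCm38.p6.

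Groups came from the agent label. limma 3.58.1 in R 4.3.3 (trend, group as the single term) was fitted to log2(FPKM + 1) of 10138 genes at 1 FPKM or more in at least 3 libraries, and p-values were adjusted over all of them (Benjamini-Hochberg). On simulated data made from these 10138 genes it recovered 72% of 1.5-fold and 91% of 2-fold changes, with 6 false calls. The changes were placed only in genes well above the filter on low values, with noise independent between genes. Recovery among low genes, or with a whole library standing apart, was therefore not tested. Alternatives were quantile normalization, median centring, a replicate block, omission of single libraries, other filters, a pseudocount of 0.1 and removal of GC and length trends (natural splines, 4 degrees of freedom; added after seeing the data). Lists were described by counts and medians, with no set test. Named were all 10 members, up to 4 changed genes of each pathway list with the largest change, 9 fixed pathway genes and the 3 genes most like the member that changed most. Members and lists were chosen with earlier results of these data known. The planned comparison of protein sequences and a planned stricter promoter pattern are not reported here, nor is 1 gene of the IKK list by name or in the plot of the lists.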

Additional observations from a re-analysis of the deposited data

How the results depend on the processing

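Over the 13 alternatives run, log2 changes stayed below 0 for Nfkb1, Nfkb2, Rel, Rela, Nfkbia, Nfkbib and Nfkbiz and above 0 for Nfkbid, whereas Relb (-0.08 to 0.06) and Nfkbie (-0.06 to 0.085) crossed 0 without a call. The cause was not tested where a call changed. With no filter on low values (16899 genes tested in place of 10138), Nfkbiz (-0.57) did not pass, 1 family gene fell, and calls numbered 236 higher and 228 lower. The inhibitory and non-canonical lists then had 0 lower and the target list 1 lower. Median centring left 0 lower in the inhibitory list and 2 higher in the target list, and quantile normalization passed Nfkbia (-0.27). Tnfrsf1b did not pass with no filter (-0.37, adjusted p = 0.0926).

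In the main fit, calls numbered 590 higher and 802 lower among 10138 genes. Removal of GC and length trends, chosen after seeing the data, gave 811 higher and 1217 lower among 10034 genes. It called 5 family genes lower, adding Nfkb1 (-0.23), Nfkb2 (-0.32) and Nfkbia (-0.28). It gave 2 higher and 2 lower in the IKK list, 2 and 2 in the inhibitory list, 2 and 6 in the target list, 2 lower in the non-canonical list and 1 lower in the modulator list.

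With the replicate number as a replicate block, calls numbered 1180 higher and 1661 lower among 10138 genes, against 590 and 802 in the main fit. With the block, 5 family genes were lower: Nfkbib and Nfkbiz as before, and Nfkb1 (-0.29), Nfkb2 (-0.27) and Rel (-0.37). The block gave 1 higher and 4 lower in the IKK list, 2 and 5 in the inhibitory list, 5 higher in the target list, 2 lower in the non-canonical list and 1 lower in the modulator list. Deviations of same-numbered libraries correlated across genes at 0.018, 0.562 and 0.406. Each LPC library correlated best with its own number, but vehicle replicate 1 did so with LPC replicate 3 (0.065). With so few libraries these correlations cannot decide whether the numbers pair them. The labels do not state a pairing, so group was kept as the single term.

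Leaving out 1 library at a time gave 225 to 809 higher and 288 to 1217 lower calls over all genes, and 1 to 4 family genes lower, with 0 higher in each fit. Changes ranged from -0.37 to -0.21 for Nfkb1, from -0.50 to -0.25 for Rel and from -0.365 to -0.323 for Nfkbib. Higher calls numbered 0 to 1 in the IKK list, 0 to 1 in the inhibitory list and 1 to 3 in the target list. Lower calls numbered 1 to 2 in the IKK list, 0 to 4 in the inhibitory list, 0 to 1 in the non-canonical list and 0 to 1 in the modulator list. Fits with fewer libraries have less power. FPKM carry no read counts, so counting error was not separated from the spread between libraries.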
